A study of Mus musculus with 15 samples.

Results

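The genes described here are 42 genes of ribosome biogenesis and the nucleolus, measured by RNA sequencing in mouse bone marrow-derived macrophages (BMDMs). They are listed by name as RNA polymerase I subunits and nucleolar ribosome assembly factors. The rule uses no measured value, but the list was drawn up with earlier results of these data known. All 42 were found among the 55385 genes of the count table, and all 42 were among the 13005 genes that passed the filter on low counts (over 1 CPM, counts scaled to a common library size, in at least 2 libraries).

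BMDMs of BALB/c mice aged 6 weeks were cultured for 2 h in serum-free DMEM, in DMEM with 20 ng/mL recombinant mouse GM-CSF (rmGM-CSF), or in 4T1 CM, which is culture medium that 4T1 cells, a mammary carcinoma line of the mouse, had conditioned. The macrophages came from STAT5fl/fl mice, in which the Stat5a and Stat5b locus is flanked by loxP sites and intact, or from STAT5cKO mice, in which the same floxed locus is deleted by a Cre driven by the Csf1r promoter. That promoter is active from early in the myeloid lineage, so that the deletion precedes the culture with rmGM-CSF or 4T1 CM. The 15 libraries comprised 2 STAT5fl/fl mice (numbered 112 and 113) and 3 STAT5cKO mice (114, 115 and 116), each mouse number under all 3 treatments. The methods of the study state that a STAT5fl/fl replicate was removed at quality control. Values per library are listed below in the order of these mouse numbers, as CPM normalized between libraries.

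Ribosomes are made in the nucleolus. RNA polymerase I transcribes a long precursor of the ribosomal RNAs, small nucleolar ribonucleoproteins (snoRNPs) guide its methylation (box C/D) and pseudouridylation (box H/ACA), and large groups of assembly factors fold and cut it into the small (40S) and large (60S) subunits. Macrophages stimulated by cytokines enlarge their protein synthesis, and many of the genes of this pathway are known targets of MYC, which binds the sequence CACGTG with its partner MAX. STAT5 is a transcription factor that the GM-CSF receptor activates.

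Library totals ranged from 16016736 to 22883108 counts, and the lowest count of any member in any library was 114. Stat5a lay at 29 and 30.3 CPM in the STAT5fl/fl libraries with DMEM and at no more than 0.142 CPM in any STAT5cKO library, and Stat5b at 65.6 and 69.8 CPM against no more than 0.189 CPM. A list of 6 macrophage markers summed to between 6612 and 8222 CPM, whereas the lists of T cell, B cell, neutrophil, dendritic cell, erythroid, stromal and epithelial markers each summed to at most 4.34 CPM. Of these lists, 1 of the 8 neutrophil, 1 of the 4 dendritic cell and 1 of the 5 epithelial markers passed the filter on low counts. The highest of these sums belonged to the 5 epithelial markers, at 3.16 to 4.34 CPM in STAT5fl/fl and 1.23 to 2.17 CPM in STAT5cKO BMDMs with 4T1 CM against at most 0.137 CPM with DMEM. With rmGM-CSF the epithelial sum was 1.18 to 1.43 CPM in STAT5fl/fl and at most 0.0491 CPM in STAT5cKO BMDMs, and the dendritic cell sum was 2.15 to 4.11 CPM over both genotypes against 1.01 to 1.39 CPM with DMEM. The 8 proliferation genes summed to between 189 and 234 CPM in the DMEM libraries, 250.1 and 296 CPM in those with rmGM-CSF, and 243 and 306 CPM in those treated with 4T1 CM. The part of these sums in the results below was not tested.

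With DMEM, the members spanned a wide range of levels. Per length of exon, the highest mean level in STAT5fl/fl BMDMs was that of Npm1, which encodes the histone chaperone nucleophosmin, at 94.7 ± 2.08 FPKM (SD, n = 2), followed by Ncl, which encodes nucleolin, at 32.7 ± 0.301 FPKM and Pes1, a subunit of the PeBoW complex of 60S assembly, at 32.0 ± 1.26 FPKM. Ncl and Pes1 differed by less than the spread of Pes1. The lowest were Rrp1b, a nucleolar protein of 60S assembly, at 1.73 ± 0.0437 FPKM and Wdr12, another PeBoW subunit, at 2.02 ± 0.122 FPKM. Together the 42 members took 0.209 ± 0.00219% of the counts in STAT5fl/fl BMDMs with DMEM and 0.208 ± 0.00621% (n = 3) in STAT5cKO BMDMs.

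More of these genes rose than fell with rmGM-CSF. In STAT5fl/fl BMDMs 22 of 42 were higher and 2 lower than with DMEM at an adjusted p under 0.01, and in STAT5cKO BMDMs 21 were higher and 0 lower. Of all genes tested, 15.9% were higher and 12.6% lower in STAT5fl/fl BMDMs (28.5% in either direction), and 13.3% were higher and 10.2% lower in STAT5cKO BMDMs (23.5% in either direction). The median log2 fold change of the members was 0.38 in STAT5fl/fl and 0.27 in STAT5cKO BMDMs, against -0.0062 and -0.0035 over all genes tested. In bulk RNA a change in the share of cells with a transcript and a change in its level per cell cannot be told apart. The summed level of the members went from 1967 ± 30.4 to 2462 ± 73.9 CPM (SD, n = 2) in STAT5fl/fl BMDMs and from 1945 ± 69.6 to 2325 ± 30.3 CPM (n = 3) in STAT5cKO BMDMs. As a share of all counts they went from 0.209% to 0.233% and from 0.208% to 0.229%. All libraries with rmGM-CSF lay above all with DMEM for 33 of the 42 members and below for 5 in STAT5fl/fl BMDMs, and above for 31 and below for 0 in STAT5cKO BMDMs. Of all genes tested, 35.7% and 36% were separated upward and downward in STAT5fl/fl BMDMs, and 24.4% and 23.8% in STAT5cKO BMDMs.

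With 4T1 CM the members split. In STAT5fl/fl BMDMs 16 of 42 were higher and 6 lower than with DMEM, where 19.2% of all genes were higher and 18.2% lower (37.4% in either direction). In STAT5cKO BMDMs 12 were higher and 9 lower, where 19.3% of all genes were higher and 18.4% lower (37.6% in either direction). The median log2 fold change of the members was 0.20 in STAT5fl/fl and 0.04 in STAT5cKO BMDMs, against 0.015 and 0.013 over all genes. Their summed level was 2131 ± 93.1 CPM in STAT5fl/fl and 2002 ± 87.2 CPM in STAT5cKO BMDMs with 4T1 CM. Their share of all counts was 0.206% and 0.193%. Against DMEM the mean sum was higher in both genotypes, whereas the mean share was lower. The sum is of counts scaled between libraries, and the share is of unscaled counts. Without Heatr1 the sum was 1906 ± 27.1 CPM with DMEM and 1928 ± 91.9 CPM with 4T1 CM in STAT5fl/fl BMDMs. In STAT5cKO BMDMs it was 1876 ± 68.3 CPM with DMEM and 1854 ± 99 CPM with 4T1 CM. The libraries with 4T1 CM lay wholly above those with DMEM for 26 members and wholly below for 13 in STAT5fl/fl BMDMs (37.9% and 36.3% of all genes), and above for 14 and below for 11 in STAT5cKO BMDMs (27.7% and 26.7% of all genes). The comparisons of rmGM-CSF and of 4T1 CM with DMEM share the DMEM libraries.

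The counts depended on single mice. Without mouse 112 or 113, fewer members passed in STAT5fl/fl BMDMs with either treatment, each time with 1 STAT5fl/fl library per treatment whose spread was taken from the other groups. Without mouse 114, 12 members passed in STAT5cKO BMDMs with rmGM-CSF, and without mouse 115, 11 passed with rmGM-CSF and 13 under 4T1 CM. The shares of all genes in these fits are not given here, so a loss particular to the members cannot be told from a loss over all genes. For Heatr1, Rrp1b, Nop58, Rrs1, Tsr1, Bysl, Ppan, Rrp12, Polr1a and Utp15 the differences from DMEM that passed also passed when each mouse in turn was left out. Each other member with such a difference lost at least 1 when a mouse was left out.

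**Figure D1:**
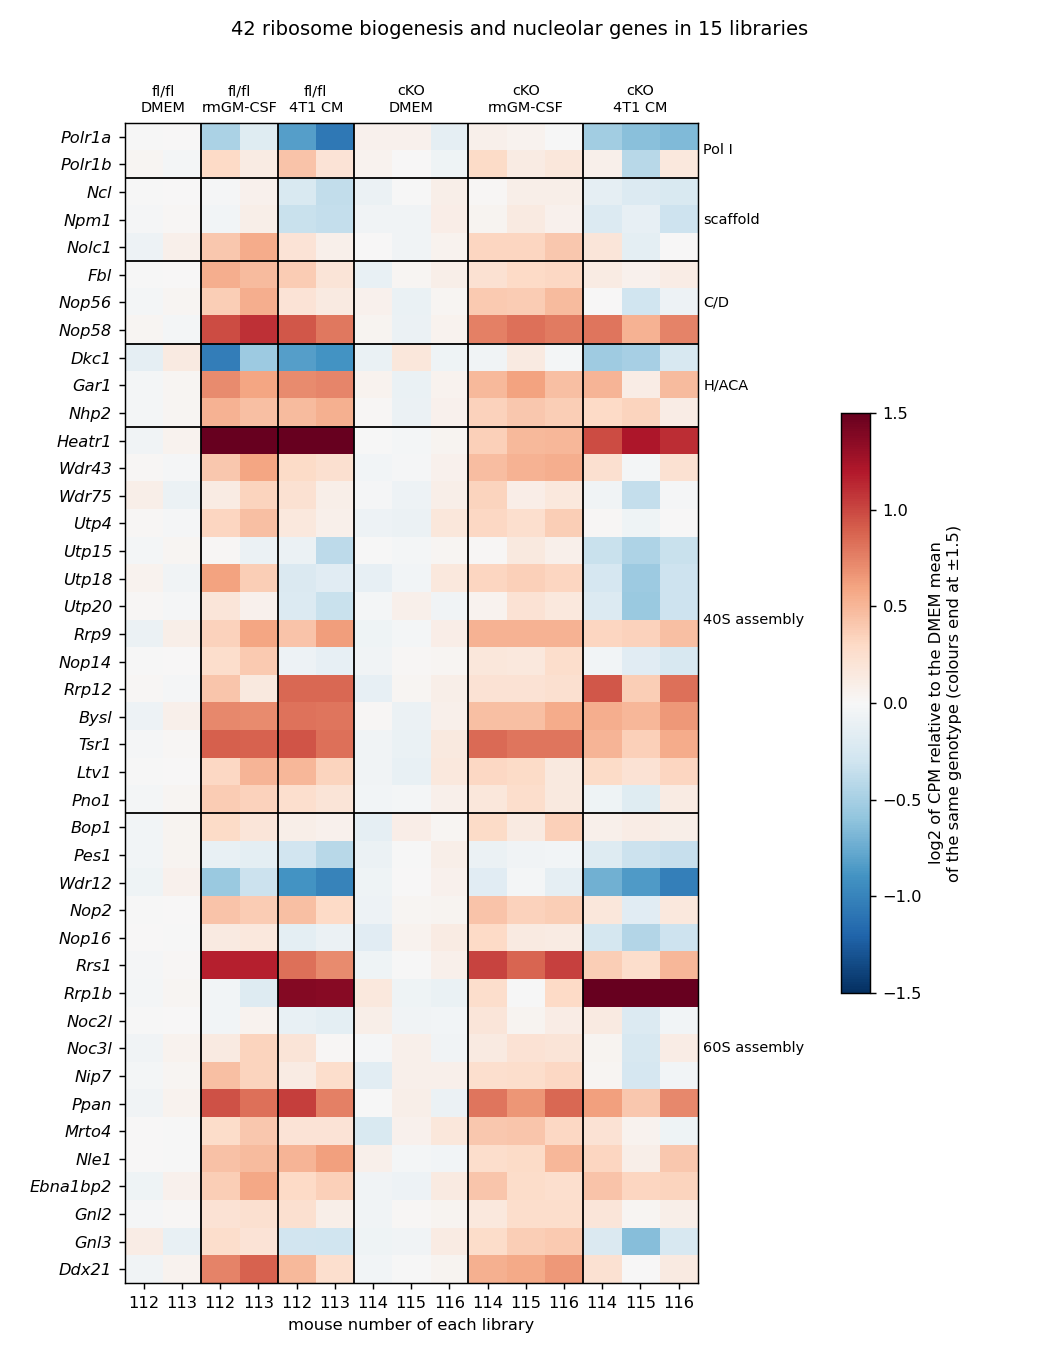
Each column is a library, named by its mouse number and grouped by genotype and treatment, and each row a member, grouped by role. Colour gives the log2 of normalized CPM minus the mean of the DMEM libraries of the same genotype, and colours end at ±1.5. Most rows turn red with rmGM-CSF in both genotypes, whereas with 4T1 CM red rows (Heatr1, Rrp1b, Nop58, Tsr1) stand beside blue ones (Polr1a, Dkc1, Wdr12).

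Of the 2 RNA polymerase I subunits among the members, Polr1a (chromosome 6, 71909053 to 71984935 of GRCm38), which encodes the largest, catalytic subunit, fell with 4T1 CM. Its level was 65.7 and 66.1 CPM with DMEM, 47.6 and 58.1 CPM with rmGM-CSF and 37.1 and 31.4 CPM with 4T1 CM in STAT5fl/fl BMDMs. In STAT5cKO BMDMs it was 65.7, 65.6 and 57.1 CPM with DMEM, 66.1, 65 and 62.5 CPM with rmGM-CSF and 43.6, 40.6 and 39.6 CPM with 4T1 CM. All 5 libraries with 4T1 CM lay below every library with DMEM or rmGM-CSF. Against DMEM the log2 fold change with 4T1 CM was -0.94 ± 0.10 (SE, adjusted p = 5.75e-07) in STAT5fl/fl and -0.61 ± 0.08 (SE, adjusted p = 7.13e-06) in STAT5cKO BMDMs. With rmGM-CSF it was -0.32 (adjusted p = 0.0164) and 0.04 (adjusted p = 0.732), neither of which passed.

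Polr1b, which encodes the second-largest subunit, passed in no comparison. It lay at 15.7 and 15 CPM with DMEM, 18.8 and 16.6 CPM with rmGM-CSF and 20.7 and 17.7 CPM with 4T1 CM in STAT5fl/fl BMDMs. The STAT5cKO libraries held 16.1, 15.6 and 14.9 CPM with DMEM, 18.9, 16.9 and 17.5 CPM with rmGM-CSF and 16.4, 11.6 and 17.4 CPM with 4T1 CM. The libraries with 4T1 CM were above those with DMEM in STAT5fl/fl BMDMs and overlapped them in STAT5cKO BMDMs, with log2 fold changes of 0.32 (adjusted p = 0.0717) and -0.04 (adjusted p = 0.822).

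Among the 3 nucleolar scaffold and chaperone proteins, Nolc1 (Nopp140, a chaperone of snoRNPs) rose with rmGM-CSF, whereas Npm1 fell with 4T1 CM. Nolc1 was at 46 and 51.2 CPM with DMEM, 64.1 and 71.7 CPM with rmGM-CSF and 55.8 and 51 CPM with 4T1 CM in STAT5fl/fl BMDMs. Its level in STAT5cKO BMDMs was 44.4, 42.5 and 46 CPM with DMEM, 55.4, 55.2 and 58.7 CPM with rmGM-CSF and 50.2, 40.03 and 44.4 CPM with 4T1 CM. Only with rmGM-CSF did the Nolc1 libraries of both genotypes separate from DMEM, with log2 fold changes of 0.48 (adjusted p = 0.00064) and 0.35 (adjusted p = 0.00237).

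Npm1 had the highest level per length of the members in every group. It was at 248 and 256 CPM with DMEM, 246 and 269 CPM with rmGM-CSF and 200.2 and 197 CPM with 4T1 CM in STAT5fl/fl BMDMs. In STAT5cKO BMDMs the libraries lay at 206, 206 and 228 CPM with DMEM, 219, 234 and 224 CPM with rmGM-CSF and 185, 196 and 172 CPM with 4T1 CM. The libraries with 4T1 CM lay below those with DMEM in both genotypes, with log2 fold changes of -0.34 (adjusted p = 0.000865) and -0.21 (adjusted p = 0.00721). The fall of Npm1 in STAT5cKO BMDMs passed under 5 of 11 alternative settings. With rmGM-CSF the Npm1 libraries overlapped those with DMEM. Ncl had log2 fold changes of -0.30 (adjusted p = 0.00225) and -0.19 (adjusted p = 0.0118) with 4T1 CM, the second of which did not pass.

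The 3 members that encode core proteins of the box C/D snoRNPs all rose with rmGM-CSF in both genotypes, and of these Nop58 also rose with 4T1 CM. Nop58 (chromosome 1, 59684971 to 59719044), a scaffold of the particle, was at 28.2 and 27 CPM with DMEM, 54.3 and 59 CPM with rmGM-CSF and 52.8 and 48 CPM with 4T1 CM in STAT5fl/fl BMDMs. The values in STAT5cKO BMDMs were 29.4, 26.9 and 29.7 CPM with DMEM, 48.3, 50.9 and 49.1 CPM with rmGM-CSF and 50.1, 41.3 and 48 CPM with 4T1 CM. Every treated library lay above every DMEM library. The log2 fold change was 1.04 ± 0.09 (SE, adjusted p = 1.1e-07) with rmGM-CSF and 0.87 ± 0.09 (SE, adjusted p = 6.46e-07) with 4T1 CM in STAT5fl/fl BMDMs, a 2.05-fold and a 1.82-fold rise, and 0.79 (adjusted p = 3.56e-07) and 0.70 (adjusted p = 6.67e-07) in STAT5cKO BMDMs.

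Fbl, which encodes the methyltransferase fibrillarin, lay at 23.9 and 24.3 CPM with DMEM, 35.2 and 33.5 CPM with rmGM-CSF and 31.3 and 27.5 CPM with 4T1 CM in STAT5fl/fl BMDMs. In STAT5cKO BMDMs it was at 20.1, 22.1 and 23 CPM with DMEM, 25.4, 26.7 and 26.9 CPM with rmGM-CSF and 23.6, 22.7 and 23.5 CPM with 4T1 CM. Under each treatment the STAT5cKO libraries were below the STAT5fl/fl libraries. The log2 fold change with rmGM-CSF was 0.51 (adjusted p = 0.000156) in STAT5fl/fl and 0.28 (adjusted p = 0.00671) in STAT5cKO BMDMs, and with 4T1 CM it was 0.29 (adjusted p = 0.0111) and 0.10 (adjusted p = 0.273), neither of which passed. Nop56, the partner scaffold of Nop58, had log2 fold changes of 0.46 (adjusted p = 0.000842) and 0.41 (adjusted p = 0.000446) with rmGM-CSF and of 0.17 (adjusted p = 0.151) and -0.12 (adjusted p = 0.219) with 4T1 CM.

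The 3 members that encode proteins of the box H/ACA snoRNPs did not move together. Gar1 and Nhp2, small core proteins of the particle, rose with both treatments in both genotypes, and Dkc1, which encodes the pseudouridine synthase dyskerin, fell with both treatments in STAT5fl/fl BMDMs. Nhp2 had log2 fold changes of 0.49 and 0.37 with rmGM-CSF and of 0.50 and 0.25 with 4T1 CM, in STAT5fl/fl and STAT5cKO BMDMs in turn. The rise with 4T1 CM in STAT5cKO BMDMs passed under 3 of 11 alternative settings for Nhp2 and under 4 of 11 for Gar1. Gar1 was at 9.24 and 9.58 CPM with DMEM, 15.3 and 14.2 CPM with rmGM-CSF and 15.4 and 15.6 CPM with 4T1 CM in STAT5fl/fl BMDMs. The STAT5cKO libraries held 8.78, 7.88 and 8.78 CPM with DMEM, 11.9, 12.9 and 11.6 CPM with rmGM-CSF and 12, 9.12 and 11.7 CPM with 4T1 CM. Each treated group lay wholly above DMEM, and the STAT5cKO libraries lay below those of STAT5fl/fl with DMEM as well as with both treatments. The log2 fold changes of Gar1 were 0.65 (adjusted p = 0.000661) and 0.72 (adjusted p = 0.000136) in STAT5fl/fl BMDMs, and 0.52 (adjusted p = 0.00122) and 0.37 (adjusted p = 0.00862) in STAT5cKO BMDMs, for rmGM-CSF and 4T1 CM in turn.

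Dkc1 (chromosome X, 75095854 to 75109777) had the lowest counts of the members, with a median of 214 per library. It lay at 13.3 and 16 CPM with DMEM, 7.11 and 9.98 CPM with rmGM-CSF and 8.23 and 7.85 CPM with 4T1 CM in STAT5fl/fl BMDMs. Its level in STAT5cKO BMDMs was 10.8, 12.9 and 11 CPM with DMEM, 11.1, 12.6 and 11.3 CPM with rmGM-CSF and 7.95, 8.13 and 9.70 CPM with 4T1 CM. The STAT5fl/fl libraries with either treatment were below both DMEM libraries, whereas in STAT5cKO BMDMs the rmGM-CSF and DMEM libraries overlapped. The log2 fold change with rmGM-CSF was -0.77 ± 0.16 (SE, adjusted p = 0.000835) in STAT5fl/fl and 0.02 ± 0.12 (SE, adjusted p = 0.915) in STAT5cKO BMDMs. The difference between these responses was 0.79 ± 0.20 (SE, adjusted p = 0.0274), which did not pass without a term for the mouse, and passed with the mouse as a block (0.80, adjusted p = 0.00988). With 4T1 CM the values were -0.87 (adjusted p = 0.000177) and -0.42 (adjusted p = 0.0109), and the second passed with the block (-0.42, adjusted p = 0.00536).

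Of the 14 factors of 40S assembly, 10 rose and 0 fell with rmGM-CSF in STAT5fl/fl BMDMs, and 7 rose and 0 fell in STAT5cKO BMDMs. With 4T1 CM 6 rose and 0 fell in STAT5fl/fl BMDMs, and 5 rose and 3 fell in STAT5cKO BMDMs. The shares of all genes were 15.9% higher and 12.6% lower with rmGM-CSF and 19.2% higher and 18.2% lower with 4T1 CM in STAT5fl/fl BMDMs, and 13.3%, 10.2%, 19.3% and 18.4% in STAT5cKO BMDMs, so that 3 of 14 lower with 4T1 CM is near the share of all genes. Heatr1 (chromosome 13, 12395027 to 12440289), the homolog of yeast UTP10 in the complex that links pre-rRNA transcription to its processing, had the largest log2 fold changes of the 14, except with rmGM-CSF in STAT5cKO BMDMs, where Tsr1 led. It was at 59 and 63.7 CPM with DMEM, 185 and 185 CPM with rmGM-CSF and 204 and 202 CPM with 4T1 CM in STAT5fl/fl BMDMs. In STAT5cKO BMDMs the libraries lay at 68.4, 67.7 and 70.6 CPM with DMEM, 88.2, 96.8 and 97.2 CPM with rmGM-CSF and 136, 159.5 and 149 CPM with 4T1 CM. No 2 of the 6 groups overlapped, and with either treatment every STAT5cKO library was below every STAT5fl/fl library, while with DMEM it was above. Heatr1 rose 3.01-fold with rmGM-CSF in STAT5fl/fl BMDMs (log2 fold change 1.59 ± 0.08 SE, adjusted p = 2.91e-11) and 1.37-fold in STAT5cKO BMDMs (0.45 ± 0.06 SE, adjusted p = 2.68e-05). With 4T1 CM it rose 3.31-fold (1.73 ± 0.08 SE, adjusted p = 8.79e-12) and 2.15-fold (1.1 ± 0.06 SE, adjusted p = 1.14e-10). Heatr1 overlaps Lgals8 and Gm5928 on the opposite strand, and the counting used strand.

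The other members of the same early complex had smaller log2 fold changes in STAT5fl/fl BMDMs. Wdr43 (UTP5) and Utp4 rose with rmGM-CSF in both genotypes, with log2 fold changes of 0.51 and 0.51 for Wdr43 and of 0.39 and 0.30 for Utp4, and neither passed with 4T1 CM. Wdr75 (UTP17) passed against DMEM in neither genotype. Utp15 was at 38 and 39.3 CPM with DMEM, 39.2 and 36.4 CPM with rmGM-CSF and 36.3 and 29.4 CPM with 4T1 CM in STAT5fl/fl BMDMs. The values in STAT5cKO BMDMs were 39.3, 38.6 and 40.3 CPM with DMEM, 39.9, 43.5 and 41.4 CPM with rmGM-CSF and 31.2, 28.5 and 31.2 CPM with 4T1 CM. Its 4T1 CM libraries were the lowest in both genotypes, with log2 fold changes of -0.23 (adjusted p = 0.0426) and -0.38 (adjusted p = 0.000424) against DMEM, of which the second passed.

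Utp18 and Utp20, later components of the small subunit processome, were lowest with 4T1 CM. Utp18 was at 28.9 and 26.9 CPM with DMEM, 42.2 and 36 CPM with rmGM-CSF and 23.9 and 24.8 CPM with 4T1 CM in STAT5fl/fl BMDMs. In STAT5cKO BMDMs it was at 26.9, 28.5 and 32.7 CPM with DMEM, 36.6, 37.4 and 36.6 CPM with rmGM-CSF and 24.6, 20.1 and 23.7 CPM with 4T1 CM. In both genotypes its libraries stood in the order 4T1 CM, DMEM and rmGM-CSF without overlap. Utp18 had log2 fold changes of 0.48 (adjusted p = 0.00169) and 0.33 (adjusted p = 0.00777) with rmGM-CSF and of -0.20 (adjusted p = 0.158) and -0.37 (adjusted p = 0.00255) with 4T1 CM, so that in STAT5cKO BMDMs it passed in opposite directions. The rise in STAT5cKO BMDMs did not pass without mouse 112, 113, 114 or 115, and the fall did not pass without mouse 115 or 116. The values of Utp20 were 58 and 56.6 CPM with DMEM, 65.1 and 59.9 CPM with rmGM-CSF and 49.8 and 45.5 CPM with 4T1 CM in STAT5fl/fl BMDMs. The STAT5cKO libraries held 59, 63.3 and 58.1 CPM with DMEM, 62.5, 70.01 and 67.3 CPM with rmGM-CSF and 52.2, 40.9 and 48.4 CPM with 4T1 CM. Its 4T1 CM libraries were below both other treatments in each genotype, with log2 fold changes of -0.27 (adjusted p = 0.0319) and -0.35 (adjusted p = 0.00137) against DMEM.

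Of the remaining 40S factors, Bysl, Tsr1 and Rrp9 rose with both treatments in both genotypes. Tsr1, a GTPase-like factor of late pre-40S particles, had log2 fold changes of 0.89 and 0.82 with rmGM-CSF and 0.88 and 0.48 with 4T1 CM, for STAT5fl/fl and STAT5cKO BMDMs in turn. Bysl, which encodes bystin, had 0.71 and 0.48 with rmGM-CSF and 0.80 and 0.56 with 4T1 CM, and Rrp9, a protein of the U3 snoRNP, had 0.47, 0.52, 0.52 and 0.37 in the same order. Rrp12, which takes part in the export of both pre-subunits, rose with 4T1 CM (0.86, adjusted p = 8.26e-05, and 0.72, adjusted p = 3.78e-05) and did not pass with rmGM-CSF (0.28 and 0.22). Ltv1 passed upward with both treatments in STAT5fl/fl BMDMs, and Pno1 and Nop14 with rmGM-CSF in STAT5fl/fl BMDMs, while these 3 passed against DMEM in no STAT5cKO comparison.

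Of the 17 factors of 60S assembly, 6 rose and 1 fell with rmGM-CSF in STAT5fl/fl BMDMs, where 15.9% of all genes were higher and 12.6% lower. In STAT5cKO BMDMs 8 rose and 0 fell with it, where 13.3% of all genes were higher and 10.2% lower. With 4T1 CM 7 rose and 2 fell in STAT5fl/fl BMDMs, where 19.2% of all genes were higher and 18.2% lower. In STAT5cKO BMDMs 4 rose and 4 fell with 4T1 CM, near the 19.3% higher and 18.4% lower of all genes. Rrs1 (chromosome 1, 9545408 to 9547455), which brings the 5S particle into the pre-60S subunit, was at 20.03 and 20.6 CPM with DMEM, 45.5 and 45.6 CPM with rmGM-CSF and 35.9 and 33.2 CPM with 4T1 CM in STAT5fl/fl BMDMs. Its level in STAT5cKO BMDMs was 23, 23.8 and 25.3 CPM with DMEM, 48.4, 44.1 and 48.8 CPM with rmGM-CSF and 31, 28.8 and 33.8 CPM with 4T1 CM. Its libraries stood in the order DMEM, 4T1 CM and rmGM-CSF without overlap in both genotypes. With rmGM-CSF its log2 fold change was 1.16 ± 0.09 (SE, adjusted p = 1.38e-08) in STAT5fl/fl and 0.97 ± 0.07 (SE, adjusted p = 1.09e-08) in STAT5cKO BMDMs, and with 4T1 CM it was 0.77 (adjusted p = 2.01e-06) and 0.38 (adjusted p = 0.00034).

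Rrp1b (chromosome 17, 32036100 to 32062865) passed against DMEM with 4T1 CM and not with rmGM-CSF. It was at 13.1 and 13.5 CPM with DMEM, 13 and 11.6 CPM with rmGM-CSF and 34.5 and 34.3 CPM with 4T1 CM in STAT5fl/fl BMDMs. In STAT5cKO BMDMs the libraries lay at 15.9, 13.5 and 13.3 CPM with DMEM, 17.1, 14.1 and 17.4 CPM with rmGM-CSF and 58.9, 58.9 and 53.6 CPM with 4T1 CM. All 5 libraries with 4T1 CM lay above all 10 others, and the 3 of STAT5cKO lay above the 2 of STAT5fl/fl. The rise was 2.59-fold in STAT5fl/fl BMDMs (log2 fold change 1.37 ± 0.11 SE, adjusted p = 1.46e-08) and 4.02-fold in STAT5cKO BMDMs (2.01 ± 0.09 SE, adjusted p = 3.04e-12), while rmGM-CSF gave -0.12 (adjusted p = 0.492) and 0.18 (adjusted p = 0.158). Rrp1b overlaps Hsf2bp on the opposite strand, and the counting used strand.

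The 3 subunits of the PeBoW complex, which acts in the maturation of the 60S rRNAs, differed. Wdr12 was at 23.1 and 25.1 CPM with DMEM, 16.4 and 19.2 CPM with rmGM-CSF and 12.9 and 12 CPM with 4T1 CM in STAT5fl/fl BMDMs. The values in STAT5cKO BMDMs were 21.1, 22.3 and 23.1 CPM with DMEM, 19.7, 21.7 and 20.2 CPM with rmGM-CSF and 13.4, 12.3 and 10.8 CPM with 4T1 CM. All 5 libraries with 4T1 CM were below all 10 others. Wdr12 had a log2 fold change with 4T1 CM of -0.95 ± 0.11 (SE, adjusted p = 1.78e-06) in STAT5fl/fl and -0.86 ± 0.09 (SE, adjusted p = 4.36e-07) in STAT5cKO BMDMs. Pes1 fell by less with 4T1 CM, at -0.35 (adjusted p = 0.000698) and -0.29 (adjusted p = 0.000618), and Bop1 passed with neither treatment. With rmGM-CSF Wdr12 fell in STAT5fl/fl BMDMs (-0.43, adjusted p = 0.00403) and did not pass in STAT5cKO BMDMs (-0.11, adjusted p = 0.373).

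Gnl3, which encodes the nucleolar GTPase nucleostemin, had 55.5 and 47.9 CPM with DMEM, 61.8 and 59.7 CPM with rmGM-CSF and 42.1 and 41.8 CPM with 4T1 CM in STAT5fl/fl BMDMs. In STAT5cKO BMDMs it was at 52.1, 52.4 and 59.4 CPM with DMEM, 65.9, 70.4 and 71.7 CPM with rmGM-CSF and 46.8, 35 and 46 CPM with 4T1 CM. Its libraries stood in the order 4T1 CM, DMEM and rmGM-CSF in both genotypes. In STAT5cKO BMDMs it rose with rmGM-CSF (0.34, adjusted p = 0.00759) and fell with 4T1 CM (-0.36, adjusted p = 0.00398), and in STAT5fl/fl BMDMs the same differences did not pass (0.23, adjusted p = 0.116, and -0.30, adjusted p = 0.0388). The rise of Gnl3 in STAT5cKO BMDMs did not pass when any 1 of the 5 mice was left out, and its fall did not pass without mouse 115 or 116. Ppan, the homolog of yeast SSF1, rose in all 4 comparisons, with log2 fold changes between 0.58 and 0.90. The RNA helicase gene Ddx21 rose with rmGM-CSF (0.82 and 0.58) and, in STAT5fl/fl BMDMs, with 4T1 CM (0.37). Ebna1bp2, a factor of pre-60S assembly, also rose in all 4 comparisons (between 0.31 and 0.48). Its rise with 4T1 CM in STAT5fl/fl BMDMs did not pass without the low-count filter or with the groups compared alone. Nor did it pass without mouse 114 or 115. Nop2, a methyltransferase of the large rRNA, rose in all but 4T1 CM in STAT5cKO BMDMs (0.06). Mrto4 (0.37) and Gnl2 (0.23) rose with rmGM-CSF in STAT5cKO BMDMs, Nip7 (0.39) rose with it in STAT5fl/fl BMDMs, and Nle1 (0.56) rose with 4T1 CM in STAT5fl/fl BMDMs. Nop16 fell with 4T1 CM in STAT5cKO BMDMs (-0.34). Noc2l, Noc3l and Bop1 passed against DMEM in no comparison.

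**Figure D2:**
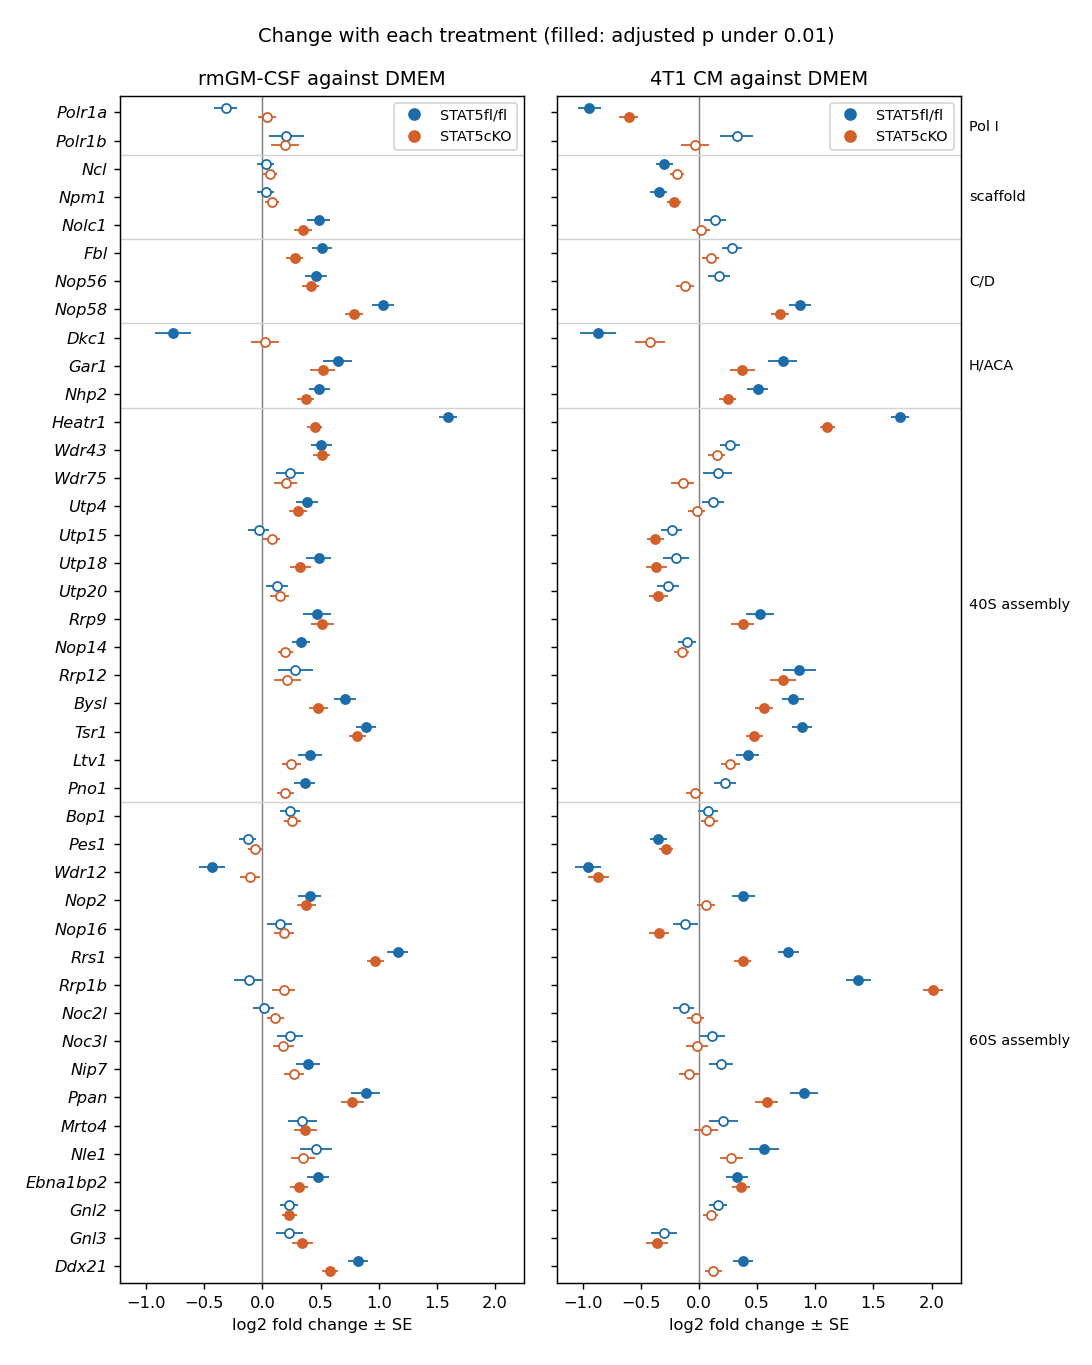
Log2 fold change against DMEM with its standard error for each of the 42 members, with rmGM-CSF on the left and 4T1 CM on the right, for STAT5fl/fl (blue) and STAT5cKO (orange) BMDMs. Filled points have an adjusted p under 0.01. With rmGM-CSF, 2 members fall in STAT5fl/fl BMDMs (Dkc1 and Wdr12) and none in STAT5cKO BMDMs, and with 4T1 CM filled points stand on both sides of 0, from -0.95 for Wdr12 to 2.01 for Rrp1b.

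With 4T1 CM compared with rmGM-CSF, 2 members were higher and 11 lower in STAT5fl/fl BMDMs, where 13.8% of all genes were higher and 16.7% lower (30.5% in either direction). The 13 of 42 that passed were thus near the share of all genes, and most were lower. In STAT5cKO BMDMs 3 were higher and 22 lower, where 16.6% of all genes were higher and 17.5% lower (34.1% in either direction). The median log2 fold change of the members was -0.15 and -0.27. The libraries with 4T1 CM lay wholly above those with rmGM-CSF for 6 members and wholly below for 25 in STAT5fl/fl BMDMs (35% and 35.4% of all genes), and above for 3 and below for 29 in STAT5cKO BMDMs (27.4% and 27.5% of all genes). Rrp1b and Rrp12 were the members higher with 4T1 CM in both genotypes, and Heatr1 was higher in STAT5cKO BMDMs (0.65 ± 0.06 SE, adjusted p = 1.5e-07). All 11 members that were lower in STAT5fl/fl BMDMs were also lower in STAT5cKO BMDMs, namely Polr1a, Ncl, Npm1, Nolc1, Utp18, Utp20, Nop14, Wdr12, Rrs1, Gnl3 and Ddx21. Without mouse 112 or 113, fewer members passed in STAT5fl/fl BMDMs, with 1 STAT5fl/fl library left per treatment. Without mouse 115, 15 passed in STAT5cKO BMDMs and without mouse 116, 16 passed. The shares of all genes in these fits are not given here.

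**Figure D3:**
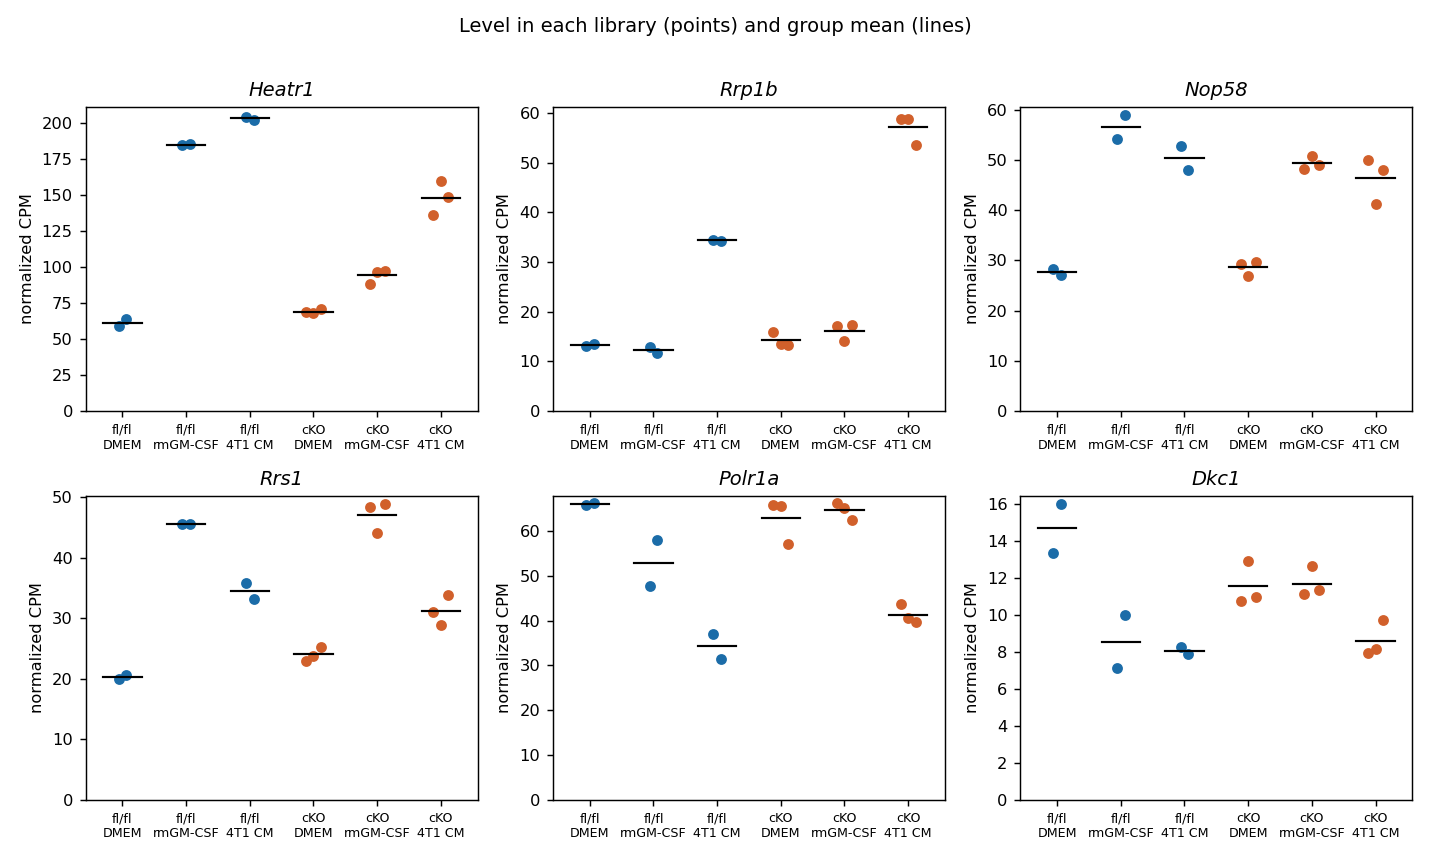
Normalized CPM of 6 members in each library (points) with the group mean (line), STAT5fl/fl in blue and STAT5cKO in orange, on axes that start at 0. Heatr1 reaches 185 CPM in both STAT5fl/fl libraries with rmGM-CSF and no more than 97.2 CPM in STAT5cKO, Rrp1b rises with 4T1 CM, Nop58 and Rrs1 rise with both treatments, and Polr1a falls with 4T1 CM.

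The question the genotypes address is which responses depend on STAT5. With DMEM 0 of the 42 members passed between STAT5cKO and STAT5fl/fl BMDMs with the likelihood ratio test and with DESeq2. The shares of all genes in these fits are not given here. With the quasi-likelihood test of edgeR 0 members passed too, where 2.49% of all genes passed (0.938% higher and 1.55% lower). At an unadjusted p under 0.05 there were 7 members, against 21.7% of all genes. With rmGM-CSF there were 11 members (29% of all genes) and with 4T1 CM 14 members (28.3% of all genes). With DMEM the largest absolute log2 difference was 0.36, of Nle1 (adjusted p = 0.0827). The DMEM libraries of the genotypes did not overlap for 9 members that were higher and 10 that were lower in STAT5cKO BMDMs, with 19.4% and 20.5% of all genes separated in these directions.

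With rmGM-CSF 2 members were lower in STAT5cKO BMDMs and 0 higher, where 6.24% of all genes were lower and 3.57% higher (9.8% in either direction). The log2 difference, STAT5cKO minus STAT5fl/fl, was -0.98 ± 0.07 (SE, adjusted p = 1.41e-08) for Heatr1 and -0.38 ± 0.08 (SE, adjusted p = 0.00246) for Fbl. The libraries of the genotypes did not overlap for 13 members that were higher and 11 that were lower, with 24.3% and 24.7% of all genes separated in these directions. The difference of Heatr1 passed when each of the 5 mice in turn was left out, and that of Fbl did not pass when mouse 112, 113, 114 or 115 was left out.

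With 4T1 CM 3 members were lower in STAT5cKO BMDMs and 1 higher, where 3.57% of all genes were lower and 4.13% higher (7.7% in either direction). Heatr1 (-0.46 ± 0.07 SE, adjusted p = 0.000166), Gar1 (-0.50 ± 0.11 SE, adjusted p = 0.00571) and Fbl (-0.34 ± 0.08 SE, adjusted p = 0.00787) were lower and Rrp1b (0.73 ± 0.09 SE, adjusted p = 3.23e-05) was higher. The libraries did not overlap for 4 members that were higher and 14 that were lower, with 20.8% and 18.6% of all genes separated in these directions. Rrp1b and Heatr1 passed when each mouse in turn was left out, Gar1 did not pass when mouse 112, 113, 115 or 116 was left out, and Fbl did not pass when any 1 of the 5 mice was left out.

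The response itself differed between the genotypes for Heatr1. The interaction, the response of STAT5cKO minus that of STAT5fl/fl BMDMs on the log2 scale, was -1.14 ± 0.10 (SE, adjusted p = 1.08e-06) for rmGM-CSF and -0.62 ± 0.10 (SE, adjusted p = 0.00146) for 4T1 CM, and 0.52 ± 0.10 (SE, adjusted p = 0.00424) for 4T1 CM against rmGM-CSF. Heatr1 was the member that passed in each of these 3 tests, in which 3.11%, 1.27% and 1.47% of all genes passed (2.22% and 0.538% downward in the first and second, 1.32% upward in the last). At an unadjusted p under 0.05 there were 5 members for rmGM-CSF, where 14.6% of all genes were, 12 for 4T1 CM (3 higher and 9 lower), where 14.3% of all genes were, and 5 for 4T1 CM against rmGM-CSF, where 12.1% of all genes were. The interaction for rmGM-CSF passed when each mouse in turn was left out, and that for 4T1 CM did not pass without mouse 112, 113 or 116. The third did not pass without mouse 112, 113, 115 or 116. The interaction of Rrp1b for 4T1 CM was 0.64 ± 0.14 (SE, adjusted p = 0.0169), and passed with the mouse as a block (0.64, adjusted p = 0.00909).

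The members that passed in each genotype overlapped. Of the members higher with rmGM-CSF, 18 passed in both genotypes, which is 18 of 22 in STAT5fl/fl and 18 of 21 in STAT5cKO BMDMs, and over all genes 68.2% and 81.3%. Of those higher with 4T1 CM, the 12 that passed in STAT5cKO BMDMs were among the 16 of STAT5fl/fl BMDMs, and of those lower, 4 passed in both, out of 6 and 9. Over all genes 77.5% and 77.4% of those higher with 4T1 CM and 78.5% and 77.8% of those lower passed in both. Across the 42 genes, which share the libraries and are not independent replicates, Pearson's r between the log2 fold changes of the genotypes was 0.84 with rmGM-CSF (0.91 without Heatr1) and 0.91 with 4T1 CM (0.90 without Heatr1), against 0.80 and 0.90 over all genes tested. The log2 fold change was the more positive in STAT5fl/fl BMDMs for 25 of 42 members with rmGM-CSF and for 32 of 42 with 4T1 CM, and for 49.9% and 48.2% of all genes.

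**Figure D4:**
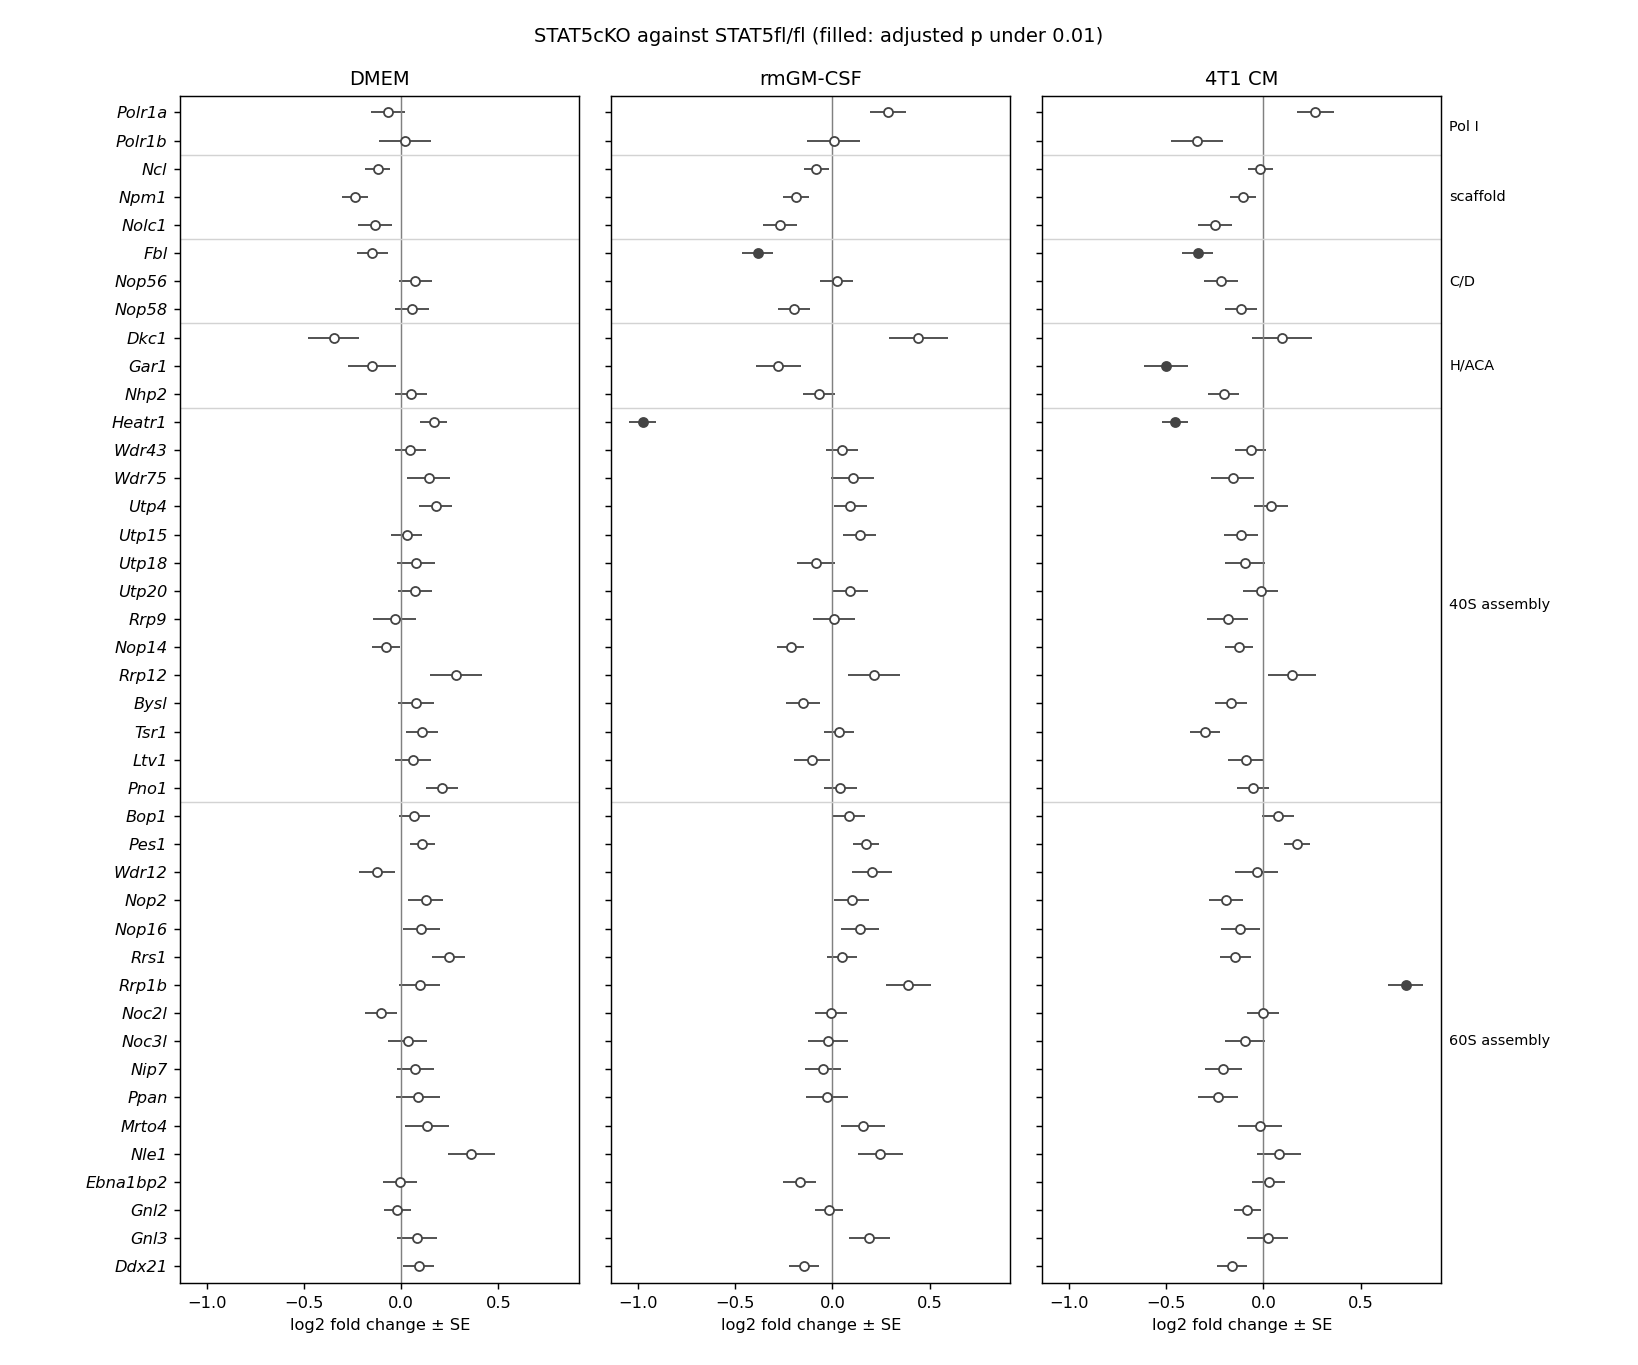
Log2 fold change of STAT5cKO against STAT5fl/fl BMDMs with its standard error for each member, with DMEM, rmGM-CSF and 4T1 CM from left to right on a common axis. Filled points have an adjusted p under 0.01. No point is filled with DMEM, Heatr1 stands at -0.98 and Fbl at -0.38 with rmGM-CSF, and with 4T1 CM Rrp1b stands at 0.73.

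A further 119 genes of the same pathway were listed, of which 118 passed the filter. With rmGM-CSF 28 of 118 were higher and 1 lower in STAT5fl/fl BMDMs and 30 were higher and 0 lower in STAT5cKO BMDMs, against 15.9% higher and 12.6% lower and 13.3% and 10.2% of all genes. With 4T1 CM 20 were higher and 11 lower in STAT5fl/fl BMDMs and 18 were higher and 14 lower in STAT5cKO BMDMs, at or below the 19.2% and 18.2% and the 19.3% and 18.4% of all genes. Among the 41 other 60S factors the GTPase gene Gtpbp4 had log2 fold changes with 4T1 CM of 0.66 in STAT5fl/fl and 0.59 in STAT5cKO BMDMs, whereas Urb1 had -0.55 and -0.62. Among the 41 other 40S factors Nol10 and Noc4l rose with 4T1 CM (0.96 and 0.82 in STAT5fl/fl BMDMs) and Ddx10 and Dhx37, a pair of helicase genes, fell (-0.59 and -0.55). The RNA polymerase I subunit gene Polr1g fell with 4T1 CM, at -0.59 and -0.64. Between the genotypes 0 of the 118 passed in the DMEM libraries, 1 passed under rmGM-CSF and 4 under 4T1 CM, against 2.49%, 9.8% and 7.7% of all genes.

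Of the genes of the MYC network, Myc rose with both treatments. It was at 7.60 and 8.90 CPM with DMEM, 62.1 and 68.2 CPM with rmGM-CSF and 113 and 111 CPM with 4T1 CM in STAT5fl/fl BMDMs. The STAT5cKO libraries held 6.71, 8.80 and 9.15 CPM with DMEM, 49.6, 49 and 52.4 CPM with rmGM-CSF and 120.1, 112 and 114 CPM with 4T1 CM. Myc was higher with 4T1 CM than with rmGM-CSF in every library, with log2 fold changes of 0.78 (adjusted p = 2.69e-06) and 1.2 (adjusted p = 8.17e-10). Max, the partner of MYC, fell with 4T1 CM (-0.74 and -0.56) and did not pass with rmGM-CSF (0.18 and -0.0049). Of the genes for proteins that compete with MYC for MAX, Mnt fell with both treatments, at -1.65 and -1.0 with rmGM-CSF and -1.97 and -1.01 with 4T1 CM, and Mxi1 fell with rmGM-CSF (-0.59 and -0.52) and rose with 4T1 CM (1.42 and 2.05). Mxd1 fell with rmGM-CSF (-0.70 and -0.60) and with 4T1 CM in STAT5fl/fl BMDMs (-1.21), and did not pass with 4T1 CM in STAT5cKO BMDMs (-0.04). The part of these genes in the members' responses was not tested.

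The sequence CACGTG was looked for in the RefSeq promoter windows of GRCm38.p6, from 250 bases before to 50 after the start of each gene, of which 36 of the 42 members had one. It was found in 10 of the 36 (27.8%), in 15 of 99 other genes of the pathway (15.2%), and in 8.09% of all 27025 genes with a window (7.15% of all 32851 windows). CACGTG reads the same on both strands. With rmGM-CSF 7 of 10 members with a match and 13 of 26 without rose in STAT5fl/fl BMDMs, against 15.9% of all genes. In STAT5cKO BMDMs 5 of 10 with a match and 13 of 26 without rose, against 13.3% of all genes. The windows of the 5 members with a match that rose with rmGM-CSF in both genotypes follow. Each has 30 bases on the strand of the gene, with the match in capitals.
Wdr43, chr17:71616220-71616249, plus strand: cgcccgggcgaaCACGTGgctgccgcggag
Utp4, chr8:106893643-106893672, plus strand: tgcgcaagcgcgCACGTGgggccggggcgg
Utp18, chr11:93885769-93885798, minus strand: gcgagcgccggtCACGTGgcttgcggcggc
Tsr1, chr11:74898092-74898121, plus strand: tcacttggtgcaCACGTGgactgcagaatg
Nop2, chr6:125131811-125131840, plus strand: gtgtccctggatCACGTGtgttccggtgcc

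The match began at position 18 from the start site in Wdr43, 16 in Utp4 and 25 in Tsr1, and at position -20 in Utp18 and -60 in Nop2. The other members with a match were Utp20, Ltv1, Pno1, Pes1 and Nle1. The median log2 fold change with rmGM-CSF in STAT5fl/fl BMDMs was 0.41 for the 10 members with a match, from -0.13 to 0.89, and 0.34 for the 26 without, from -0.77 to 1.59. With 4T1 CM it was 0.24 and 0.18. These ranges overlapped, and the members with the largest changes, Heatr1 and Rrp1b, had no CACGTG in their windows. Sequence outside the windows was not searched, and a link between a match and the changes was not tested.

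The sequence TTCNNNGAA, the core of the element that STAT5 binds and equal on both strands, was looked for in the same windows after the values had been seen. It was found in 3 of 36 members (8.33%), in 15 of 99 other genes of the pathway (15.2%), and in 9.55% of all genes with a window (8.3% of all windows). The 3 were Polr1b, Utp15 and Nop58, which did not respond alike. Against DMEM, Polr1b passed in no comparison, and Utp15 passed only downward, with 4T1 CM in STAT5cKO BMDMs. Nop58 rose with both treatments in both genotypes, so also where the Stat5a and Stat5b locus was deleted. A link between a match and the changes was not tested. Only the window of Nop58 is shown, with the match in capitals, beginning at position -46 from the start site.
Nop58, chr1:59684950-59684979, plus strand: gtgacgttacTTCCCAGAAttcttagagaa

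Heatr1, the member whose responses differed between the genotypes, had no match in its window, and sequence outside it was not searched. A match is a description of the sequence, and whether a factor bound there was not measured.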

How the data were processed

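RNA was measured in 15 BMDM libraries of 6 groups, with 2 STAT5fl/fl and 3 STAT5cKO mice under each treatment. The authors trimmed reads with Trimmomatic 0.33, aligned them to GRCm38 with HISAT2 2.1.0 and counted them per gene with featureCounts 1.6.2, with strand, both ends mapped and a mapping quality of at least 10, and deposited raw counts with exon lengths and positions. Reads of low mapping quality were thus left out, which lowers genes with near-identical copies. Small nucleolar RNA genes lie within Nop58, Nop56, Ncl, Gnl3, Dkc1, Wdr43, Tsr1 and Ppan, and how reads shared with them were assigned is not given in the sources used here.

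From the counts, genes with over 1 CPM in at least 2 libraries were kept (13005 of 55385). Counts were scaled by relative log expression, with factors of 1.06 to 1.08 in the DMEM libraries and 0.945 to 0.995 in the treated ones. They were tested with the quasi-likelihood F test of edgeR 4.0.16 in R 4.3.3 over all 15 libraries. Adjustment was by Benjamini-Hochberg over all 13005 genes with a threshold of 0.01, as in the filter and threshold of the study. All adjusted p-values are from this fit unless another is named. Levels are normalized CPM, per kilobase of exon as FPKM. The scripts were tested on simulated data. The fit had no term for the mouse, so that libraries of the same mouse were treated as independent. Its p-values rest on 2 and 3 mice and on a spread within groups that was estimated over all 6 groups together.

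Each mouse number, taken from the sample titles, occurred under all 3 treatments and was taken as 1 mouse. The deviations of its libraries from their group means correlated at 0.0548 to 0.214 in 15 pairs (median 0.162). Alternatives were TMM scaling, no low-count filter, the likelihood ratio test, DESeq2 1.42.0, the groups compared alone, the mouse as a block (by limma 3.58.1 between genotypes) and leaving out each mouse.

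The members and lists were chosen with earlier results of these data known. All members may be named. Values per library were given for Polr1a and Polr1b, for the members of each other role with the largest changes of either sign in STAT5fl/fl BMDMs, for those that passed between genotypes or in an interaction, and for those that passed in opposite directions. Of the other pathway genes, the 2 of each list with the largest changes of either sign with 4T1 CM could be named. Stat5a and Stat5b were given as a check of the deletion, and Myc, Max, Mxd1, Mxi1 and Mnt as regulators. Promoter windows are from RefSeq (GRCm38.p6), which matched 36 of 42 members. Libraries in HC11 cell medium that the table's header also names were not analysed here.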

Additional observations from a re-analysis of the deposited data

Results flagged for a closer look

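For Heatr1 the response differed between the genotypes by a test of the difference itself (edgeR, adjusted over all genes). The interaction, STAT5cKO minus STAT5fl/fl, was -1.14 for rmGM-CSF (adjusted p = 1.08e-06), -0.62 for 4T1 CM (adjusted p = 0.00146) and 0.52 for 4T1 CM against rmGM-CSF (adjusted p = 0.00424). Set against the DMEM library of the same mouse, Heatr1 rose with rmGM-CSF by 1.64 and 1.54 on the log2 scale in the STAT5fl/fl mice and by 0.37, 0.52 and 0.46 in the STAT5cKO mice. With 4T1 CM the values were 1.79 and 1.67, and 0.99, 1.24 and 1.07. The genotypes did not overlap under either treatment.

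For 3 further members every mouse of a genotype moved in the direction opposite to every mouse of the other, and the interaction did not pass. Rrp1b with rmGM-CSF had log2 ratios of -0.01 and -0.22 in STAT5fl/fl mice and 0.11, 0.06 and 0.39 in STAT5cKO mice, with an interaction of 0.30 (adjusted p = 0.421, edgeR). Nop56 with 4T1 CM had 0.23 and 0.11 against -0.06, -0.20 and -0.10, with an interaction of -0.29 (adjusted p = 0.281, edgeR). Wdr75 with 4T1 CM had 0.14 and 0.17 against -0.04, -0.28 and -0.12, with an interaction of -0.30 (adjusted p = 0.411, edgeR). Several of these ratios lie close to 0. The 3 were picked by direction alone from all members under both treatments. The share of all genes with such a pattern is not given here. Whether 3 is more than would arise by chance was not tested.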

How the results depend on the processing

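Of 135 member values that passed, 54 passed under all 11 alternatives and 81 were lost under at least 1, with 0 reversed. With the fit kept to the groups compared, 1 member rather than 4 differed between the genotypes with 4T1 CM (Rrp1b) and 0 rather than 1 in the interaction for 4T1 CM against rmGM-CSF. The interaction for rmGM-CSF counted 2 rather than 1 members with the likelihood ratio test and with the mouse as a block, and that for 4T1 CM 2 with these and with DESeq2. With the mouse as a replicate block, Mrto4 (adjusted p = 0.0101) and Gnl2 (0.0111) with rmGM-CSF and Nhp2 (0.0151) with 4T1 CM were lost in STAT5cKO BMDMs, and Dkc1 with 4T1 CM in STAT5cKO BMDMs (0.00536), Nop56 between the treatments in STAT5fl/fl BMDMs (0.00961) and the interactions of Dkc1 (0.00988) and Rrp1b (0.00909) were gained. The block changed no other call.

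With each mouse left out in turn, the members that passed numbered 8 to 24 in STAT5fl/fl and 11 to 18 in STAT5cKO BMDMs with rmGM-CSF, 11 to 22 and 13 to 19 with 4T1 CM, and 2 to 13 and 15 to 24 between the treatments. Between the genotypes the members that passed numbered 0 to 0 with DMEM, 1 to 2 with rmGM-CSF and 2 to 3 with 4T1 CM, and in the interactions 1 to 1 for rmGM-CSF, 0 to 1 for 4T1 CM and 0 to 1 for 4T1 CM against rmGM-CSF. Leaving out a STAT5fl/fl mouse leaves 1 library per treatment, assumed to vary like the other groups. The lowest members, such as Dkc1 with a median of 214 counts, have the widest counting error.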

Other observations

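The exosome and snoRNP lists beside the members held genes that passed in both genotypes with 4T1 CM. Exosc3, a core subunit of the RNA exosome that trims pre-rRNA, had log2 fold changes of 0.43 in STAT5fl/fl and 0.70 in STAT5cKO BMDMs, and of 0.50 and 0.50 with rmGM-CSF. Tgs1, which encodes the enzyme that modifies the cap of some small nuclear and nucleolar RNAs, had -0.56 and -0.55 with 4T1 CM and did not pass with rmGM-CSF (0.05 and 0.07). Surf6, a nucleolar protein of subunit assembly, had -0.42 and -0.97 with 4T1 CM.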
